A study of Mus musculus with 12 samples.

Results

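The 10 genes described here encode purinergic and adenosine signalling proteins, namely the ATP-gated channels *P2rx4* and *P2rx7*, the nucleotide receptors *P2ry2*, *P2ry6* and *P2ry12*, the adenosine receptors *Adora2a*, *Adora2b* and *Adora3*, and the enzymes *Entpd1* and *Ada*. They were chosen by symbol, with earlier results of these data known, from the 43280 genes of the deposited table. All 10 were among the 12086 genes tested. RNA was sequenced from bone marrow-derived macrophages (BMDM), cells grown from mouse bone marrow with the growth factor M-CSF, of wild type (wt) and *Treml4-/-* mice on the C57BL6 background. *Treml4* encodes a receptor of the TREM family on myeloid cells, and the study asked what it does in inflammatory macrophages. Cells were left unstimulated (M0) or received lipopolysaccharide (LPS), a bacterial cell wall component, at 100 ng/ml for 8 h (M1-8 h) or 12 h (M1-12 h), with 2 biological replicates in each of the 6 conditions. The M1 cells thus received LPS and no other agent named in the labels, and the *Treml4-/-* cells lacked the gene throughout culture. No mouse ages are given, and the labels do not say whether replicates came from separate animals, so p-values measure the spread between these cultures.

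After 8 h of LPS, *Adora2a*, *Adora2b*, *Adora3* and *Entpd1* RNA rose and *P2rx7* RNA fell in both genotypes. By 12 h, relative to all reads, *P2rx7* and *Adora3* were again near their M0 levels. *Adora2a* and *Adora2b* had come down in part, and *Entpd1* had stayed high. Under other scalings of the libraries, *P2rx7* and *Adora3* were above M0 at 12 h. *P2rx4* rose at 12 h and *P2ry6* was lowest at 12 h. No difference between wt and *Treml4-/-* cells passed the test for any of the 10 genes.

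Extracellular ATP and other nucleotides, released by stressed or dying cells, act on P2X channels, which open on ATP binding, and on P2Y receptors, which couple to G proteins. In macrophages *P2rx7* encodes the channel whose opening lets potassium leave the cell and sets off the NLRP3 inflammasome and release of interleukin-1β. Ectonucleotidases on the cell surface break ATP down in steps to adenosine, which acts on its own receptors, and those encoded by *Adora2a* and *Adora2b* raise cAMP and dampen the response to LPS. Adenosine deaminase, the product of *Ada*, turns adenosine into inosine.

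Reads counted on genes ran from 48008751 to 58500792 per library. *Treml4* was at 8.35 and 6.57 counts per 1000000 reads (CPM) in the wt M0 replicates, 4.0 and 3.95 CPM at M1-8 h and 9.82 and 13.2 CPM at M1-12 h, while no read was counted in the 6 *Treml4-/-* libraries. All 8 macrophage markers were present, with a sum of 20700 to 27900 CPM at M0, 10300 to 13400 CPM at M1-8 h and 10000 to 11200 CPM at M1-12 h, and 5 LPS response genes summed to 83.1 to 113 CPM at M0 and 23600 to 27500 CPM after LPS. Of the marker lists for other cells, the neutrophil list summed to 18.4 to 63.4 CPM over all libraries. The T cell list summed to 0.27 to 0.511 CPM at M0, 9.73 to 31.4 CPM at M1-8 h and 2.85 to 5.80 CPM at M1-12 h, although only 1 of its 4 genes, *Lck*, reached 1 CPM. The B cell list went from 4.39 to 6.48 CPM at M0 to at most 0.686 CPM after LPS, and the mast cell, fibroblast and erythroid lists stayed at or under 1.25 CPM. The dendritic cell list, also with 1 of 4 genes at 1 CPM, summed to 0.669 to 0.856, 4.12 to 7.61 and 2.53 to 5.74 CPM at these times, and its part and that of the T cell list in the results was not tested. In bulk RNA, fewer cells of a type and less RNA per cell cannot be told apart.

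The test was limma on log2(CPM + 1) over all 12 libraries, and on this scale the change of a gene with few reads comes out too small. Calls needed an adjusted p (Benjamini-Hochberg) under 0.05 together with at least a 1.4-fold change. On the CPM scale the median gene tested moved by -0.72 log2 units at 8 h and -0.76 at 12 h against M0, and by -0.06 from 8 h to 12 h. Scaling the libraries by median of ratios size factors in place of read totals brought these medians to -0.04, -0.04 and -0.02. For the 10 genes, changes of the mean of both genotypes are therefore given on the CPM scale and again after median of ratios scaling. The 10 most abundant genes took 11.5 to 13.3% of the reads at M0, 10.6 to 11.4% at M1-8 h and 12.8 to 13.6% at M1-12 h. Which scaling is nearer to RNA per cell was not tested.

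As the mean of both genotypes at 8 h, 5 of the 10 genes were higher and 2 were lower, where 17.1% of all genes tested were higher and 59.8% were lower. At 12 h 5 were higher and 3 lower, against 16.3% and 60.3% of all genes. From 8 h to 12 h 2 were higher and 6 lower, against 13.5% and 18.7%. The median log2 fold change of the 10 genes was 0.32 at 8 h, 0.43 at 12 h and -0.54 from 8 h to 12 h. After median of ratios scaling 8 were higher and 1 lower at 8 h, against 31.1% and 31.3% of all genes. At 12 h this scaling gave 7 higher and 1 lower, against 32.6% and 32.5%, and from 8 h to 12 h it gave 2 higher and 5 lower, against 15.5% and 17.0%. Within wt cells 6 of the 10 genes were called at 8 h and 7 at 12 h, where 76.9% and 76.7% of all genes were. Within *Treml4-/-* cells 7 were called at each time, where 75.9% and 75.7% of all genes were. In wt cells the log2 fold change at 8 h was 4.37 ± 0.30 for *Adora2a*, 3.52 ± 0.17 for *Adora2b*, 1.88 ± 0.18 for *Adora3*, 1.94 ± 0.09 for *Entpd1* and -1.93 ± 0.14 for *P2rx7*. In *Treml4-/-* cells these values were 3.82 ± 0.30, 3.69 ± 0.17, 1.94 ± 0.18, 2.09 ± 0.09 and -1.74 ± 0.14. *P2ry12* was called at 8 h in *Treml4-/-* cells (0.82 ± 0.26) and not in wt cells (0.38 ± 0.26), at 12 h in wt cells (0.65 ± 0.26) and not in *Treml4-/-* cells (0.51 ± 0.26), and *Ada* at 12 h in *Treml4-/-* cells (-0.81 ± 0.12) and not in wt cells (-0.38 ± 0.12), while the interactions for these genes were not called. Both comparisons with M0 share the M0 libraries and are not independent of each other.

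**Figure D1:**
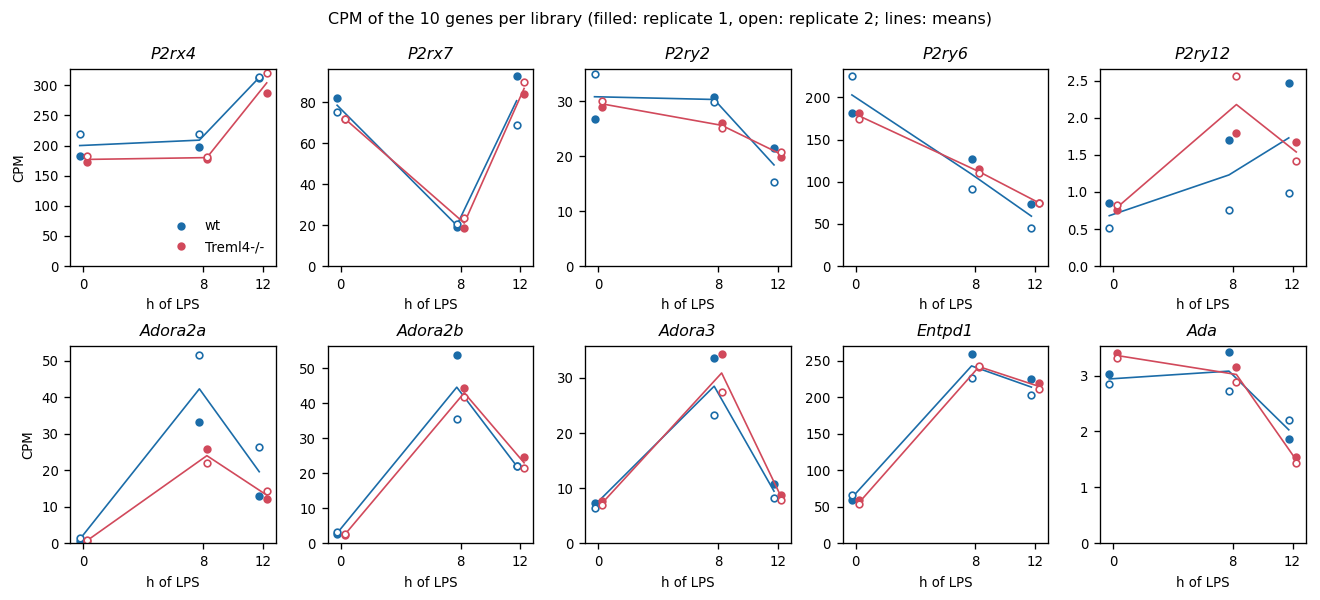
CPM of each gene in all 12 libraries against hours of LPS (axes start at 0), with wt in blue, *Treml4-/-* in red, filled points for replicate 1, open points for replicate 2 and lines through the means. *Adora2a*, *Adora2b* and *Adora3* peak at 8 h, *P2rx7* dips to 18.4 to 23.6 CPM at 8 h, and the wt points lie above the *Treml4-/-* points for *Adora2a* at 8 h.

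*P2rx7* fell at 8 h and, on the CPM scale, was near its M0 level again at 12 h. At M0 it was at 81.9 and 75.2 CPM in the wt replicates and 72.1 and 72.1 CPM in *Treml4-/-* cells. The M1-8 h values were 19.1 and 20.6 CPM in wt and 18.4 and 23.6 CPM in *Treml4-/-* cells. At M1-12 h they were 92.7 and 69.0 CPM in wt and 83.9 and 89.8 CPM in *Treml4-/-* cells. All 4 libraries at 8 h lay under every library at the other times, and the M0 and 12 h libraries overlapped. *P2rx7* fell by 1.83 ± 0.10 (SE) log2 units at 8 h (limma, adjusted p = 7.5e-09), or -1.05 after median of ratios scaling. It rose by 1.98 ± 0.10 from 8 h to 12 h (limma, adjusted p = 7.6e-08), or by 2.04 with the other scaling. Against M0, the 12 h value of 0.15 ± 0.10 did not pass the test on the CPM scale (limma, adjusted p = 0.192), whereas it was called at 0.98 after median of ratios scaling and at 0.53 after quantile normalization.

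*P2rx7* (chromosome 5, 122643911 to 122691432, plus strand, mm10) and *P2rx4* (chromosome 5, 122707544 to 122729738, plus strand) lie 16.1 kb apart in the same orientation. A microRNA gene, *Mir8115*, shares 119 exon bases with *P2rx7* on the same strand. The promoter window of *P2rx7* is shown because its RNA moved opposite to the adenosine receptors at 8 h. It is the 250 bases before the RefSeq start (GRCm38.p6, chr5:122643677-122643926, plus strand), read 5′ to 3′, with a match to the AP-1 motif TGANTCA in capitals, 249 bases before the start. The window runs past the gene start given above, 122643911, which comes from GENCODE.
P2rx7: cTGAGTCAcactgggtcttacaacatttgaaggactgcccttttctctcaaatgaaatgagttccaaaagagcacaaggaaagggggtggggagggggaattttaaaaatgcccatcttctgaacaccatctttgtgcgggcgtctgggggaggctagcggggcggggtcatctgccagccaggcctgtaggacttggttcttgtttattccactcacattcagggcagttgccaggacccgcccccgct

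*P2rx4*, whose product is a channel largely held on lysosomes, took a different course from its neighbour. At M0 it was at 182 and 219 CPM in wt and 172 and 182 CPM in *Treml4-/-* cells. At M1-8 h it was at 198 and 220 CPM in wt and 178 and 181 CPM in *Treml4-/-* cells, and at M1-12 h at 312 and 314 CPM in wt and 288 and 320 CPM in *Treml4-/-* cells. The M0 and 8 h libraries overlapped, and all 4 libraries at 12 h were above them. The 8 h difference of 0.04 ± 0.07 log2 units did not pass the test (limma, adjusted p = 0.563). It was called at 0.84 after median of ratios scaling but was 0.01, not called, after quantile normalization. *P2rx4* rose by 0.71 ± 0.07 at 12 h against M0 (limma, adjusted p = 1.4e-06). That rise was 1.56 after median of ratios scaling and 0.76 after quantile normalization. Between 8 h and 12 h *P2rx4* rose by 0.67 ± 0.07 (limma, adjusted p = 1.2e-05), or by 0.72 after median of ratios scaling.

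Among the P2Y receptors *P2ry6*, a receptor for UDP, declined at each step on the CPM scale. Its values at M0 were 181 and 225 CPM in wt and 182 and 174 CPM in *Treml4-/-* cells. They were 127 and 91.5 CPM in wt and 115 and 110 CPM in *Treml4-/-* cells at 8 h. At 12 h they were 73.8 and 44.7 CPM in wt and 74.9 and 75.3 CPM in *Treml4-/-* cells. The libraries of the 3 time points did not overlap, and the wt replicates differed more from each other than the *Treml4-/-* replicates at each time. On the CPM scale *P2ry6* was lower at 8 h by -0.78 ± 0.15 log2 units (limma, adjusted p = 3.4e-04), which was -0.05 relative to the median gene. This 8 h value turned to 0.02 after median of ratios scaling but was -0.74, still called, after quantile normalization. *P2ry6* fell by 1.51 ± 0.15 at 12 h against M0 (limma, adjusted p = 1.1e-06), or -0.67 after median of ratios scaling, which was still called. Between 8 h and 12 h it fell by 0.74 ± 0.15 (limma, adjusted p = 0.00119), or -0.69 after median of ratios scaling.

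*P2ry2*, which responds to ATP and UTP, lies 21.9 kb from *P2ry6* on the minus strand of chromosome 7. It was at 26.7 and 34.9 CPM in wt and 29.0 and 30.1 CPM in *Treml4-/-* cells at M0. The 8 h values were 30.8 and 29.8 CPM in wt and 26.1 and 25.2 CPM in *Treml4-/-* cells, and the 12 h values were 21.5 and 15.3 CPM in wt and 19.9 and 20.7 CPM in *Treml4-/-* cells. The 12 h libraries lay under all others. *P2ry2* was lower at 12 h against M0 on the CPM scale, by -0.62 ± 0.11 log2 units (limma, adjusted p = 1.8e-04), but the sign turned to 0.19 after median of ratios scaling and to 0.14 after quantile normalization. The 8 h difference of -0.10 ± 0.11 did not pass the test (limma, adjusted p = 0.375) and turned to a called 0.67 after median of ratios scaling. From 8 h to 12 h it fell by 0.52 ± 0.11 (limma, adjusted p = 0.00166), but at -0.47 after median of ratios scaling, and at -0.40 without wt M1-12 h replicate 2, it was under 1.4-fold.

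*P2ry12*, the ADP receptor of platelets and microglia, was weakly expressed, with 26 to 140 reads per library. At M0 it was at 0.849 and 0.511 CPM in wt and 0.754 and 0.823 CPM in *Treml4-/-* cells. At 8 h it was at 1.70 and 0.761 CPM in wt and 1.79 and 2.56 CPM in *Treml4-/-* cells, and at 12 h at 2.47 and 0.992 CPM in wt and 1.67 and 1.42 CPM in *Treml4-/-* cells. The 8 h libraries overlapped those at M0, and the 12 h libraries did not. It rose by 0.60 ± 0.18 log2 units at 8 h (limma, adjusted p = 0.00828) and by 0.58 ± 0.18 at 12 h (limma, adjusted p = 0.00999), or by 0.94 and 0.96 after median of ratios scaling. On the deposited log2 CPM scale, which does not add 1 CPM, the changes were 1.11 and 1.10. Between 8 h and 12 h the change was -0.02 and turned to 0.02 after median of ratios scaling, called under neither. The 8 h call was lost without wt M1-8 h replicate 1 (0.45) and the 12 h call without wt M1-12 h replicate 1 (0.38), and both were lost with no filter on low values (limma, adjusted p = 0.0945 and 0.105). The gene (chromosome 3, 59216272 to 59262871, minus strand) lies inside *Med12l* on the opposite strand, with 9 shared exon bases, and *Med12l* went from a mean of 0.131 CPM at M0 to 1.96 CPM at 8 h and 3.79 CPM at 12 h. Whether counting used strand is not given in the sources used here, so reads from *Med12l* could be counted on any exon of *P2ry12*. At 8 h *Med12l* was at a mean of 1.28 CPM in wt and 2.64 CPM in *Treml4-/-* cells. Its part in the *P2ry12* values was not tested. Of the microglia marker list 2 of 4 genes reached 1 CPM, the sum went from 279 to 298 CPM at M0 to 64.2 to 115 CPM after LPS, and the defining marker *Sall1* had no read in any library. The platelet list, also with 2 of 4 genes at 1 CPM, summed to 1.08 to 2.49 CPM at M0 and 2.06 to 3.40 CPM after LPS, and its part in the result was not tested.

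*Entpd1* encodes CD39, the ectonucleotidase that takes ATP and ADP to AMP, and it was high at both times after LPS. It was at 59.6 and 65.5 CPM in wt and 58.7 and 53.8 CPM in *Treml4-/-* cells at M0. At 8 h it was at 260 and 226 CPM in wt and 241 and 243 CPM in *Treml4-/-* cells. At 12 h it was at 225 and 203 CPM in wt and 219 and 211 CPM in *Treml4-/-* cells. The 3 time points did not overlap, with the 12 h libraries just under those at 8 h. The log2 fold change was 2.01 ± 0.07 at 8 h (limma, adjusted p = 1.2e-10) and 1.84 ± 0.07 at 12 h (limma, adjusted p = 2.4e-10), and after median of ratios scaling it was 2.80 and 2.68. The change between 8 h and 12 h was -0.18 ± 0.07 (limma, adjusted p = 0.0409), or -0.13 with the other scaling, under the 1.4-fold threshold. *Entpd1* lies on chromosome 19, 40612366 to 40741602, plus strand.

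*Nt5e*, which encodes CD73 and makes adenosine from AMP on the cell surface, reached at most 0.823 CPM, or 44 reads, in any library and was not tested. Of the other 7 ecto-nucleotidase genes listed beside *Entpd1*, which include *Nt5e*, only *Enpp1* was tested, and it fell from a mean of 5.87 CPM to 1.81 CPM at 8 h (log2 fold change -1.29) and 1.27 CPM at 12 h (-1.60). After median of ratios scaling the *Enpp1* values were -0.66 and -0.96, and after quantile normalization they were -0.43, not called, and -0.70.

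*Adora2a* showed the largest rise of the 10 genes. At M0 it was at 0.675 and 1.49 CPM in wt and 0.693 and 0.823 CPM in *Treml4-/-* cells, from 34 to 76 reads. At M1-8 h the wt replicates were at 33.1 and 51.5 CPM and the *Treml4-/-* replicates at 25.9 and 22 CPM. At M1-12 h they were at 12.9 and 26.4 CPM and at 12.2 and 14.2 CPM. The LPS libraries were all above those at M0, and the 8 h and 12 h libraries overlapped. The mean CPM rose 36.0-fold at 8 h and was 17.8-fold above M0 at 12 h. On the log2(CPM + 1) scale the change was 4.10 ± 0.21 at 8 h (limma, adjusted p = 4.5e-09) and 3.13 ± 0.21 at 12 h (limma, adjusted p = 4.5e-08), or 4.54 and 3.62 after median of ratios scaling. On the deposited log2 CPM scale these changes were 5.16 and 4.15. It fell by 0.96 ± 0.21 from 8 h to 12 h (limma, adjusted p = 0.00238), or -0.92 with median of ratios scaling, a CPM-scale call lost with no filter on low values (limma, adjusted p = 0.0536).

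*Adora2b*, whose receptor needs more adenosine than that of *Adora2a*, took a like course from a slightly higher start. It was at 2.64 and 3.15 CPM in wt and 2.28 and 2.54 CPM in *Treml4-/-* cells at M0. At 8 h it was at 53.8 and 35.4 CPM in wt and 44.3 and 41.7 CPM in *Treml4-/-* cells. At 12 h it was at 22.2 and 22.1 CPM in wt and 24.7 and 21.4 CPM in *Treml4-/-* cells. None of the time points overlapped, and the mean CPM was 16.5-fold above M0 at 8 h and 8.51-fold at 12 h. The log2 fold change was 3.61 ± 0.12 at 8 h (limma, adjusted p = 1.1e-10) and 2.69 ± 0.12 at 12 h (limma, adjusted p = 1.1e-09), or 4.21 and 3.34 after median of ratios scaling. The fall between 8 h and 12 h was -0.91 ± 0.12 (limma, adjusted p = 6.0e-05), or -0.87 with the other scaling.

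*Adora3*, whose receptor couples to inhibitory G proteins, peaked at 8 h and fell back furthest. It was at 7.31 and 6.49 CPM in wt and 7.64 and 6.87 CPM in *Treml4-/-* cells at M0. At 8 h the values were 33.7 and 23.3 CPM in wt and 34.4 and 27.4 CPM in *Treml4-/-* cells, and at 12 h they were 10.7 and 8.16 CPM in wt and 8.69 and 7.92 CPM in *Treml4-/-* cells. The 12 h libraries all lay above the M0 libraries, by a narrow margin. The log2 fold change was 1.91 ± 0.13 at 8 h (limma, adjusted p = 4.7e-08), or 2.61 after median of ratios scaling. It fell by 1.63 ± 0.13 from 8 h to 12 h (limma, adjusted p = 1.5e-06), or -1.59. The 12 h value against M0, 0.28 ± 0.13, did not pass the test (limma, adjusted p = 0.0581) but was called at 1.02 after median of ratios scaling and 1.27 after quantile normalization. *Adora3* shares 779 exon bases with *Tmigd3* on the same strand in the annotation, so some reads could belong to either gene. Of the 4 mast cell markers, *Mcpt4* and *Fcer1a* had no read in any library, and the list summed to 0.115 to 0.786 CPM. Its part in the result was not tested. The fourth adenosine receptor gene, *Adora1*, had at most 1 read in a library.

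The promoter windows of *Adora2b* and *Adora3* are shown because both genes rose together at 8 h, each as the 250 bases before the RefSeq start (GRCm38.p6, plus strand, 5′ to 3′) at chr11:62248734-62248983 and chr3:105904171-105904420. The *Adora3* window lies inside the gene span used here for place and exon length (105870858 to 105908926), which comes from GENCODE. Capitals mark a match to the AP-1 motif TGANTCA in the *Adora3* window, 98 bases before the start, and the *Adora2b* window held none of the motifs searched. The table had windows for 8 of the 10 genes, without *Adora2a* and *P2ry6*.
Adora2b: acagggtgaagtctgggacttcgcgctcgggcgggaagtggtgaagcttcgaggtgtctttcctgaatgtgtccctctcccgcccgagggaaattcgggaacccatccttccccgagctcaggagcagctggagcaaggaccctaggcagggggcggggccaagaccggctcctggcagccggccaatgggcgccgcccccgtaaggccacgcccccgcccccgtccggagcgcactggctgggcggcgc
Adora3: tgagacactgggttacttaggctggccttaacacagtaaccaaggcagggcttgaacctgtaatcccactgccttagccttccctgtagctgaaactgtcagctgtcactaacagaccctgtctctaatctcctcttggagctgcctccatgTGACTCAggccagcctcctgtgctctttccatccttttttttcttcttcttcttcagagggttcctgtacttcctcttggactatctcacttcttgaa

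Searched on both strands, TGANTCA was in 6.12% of 22133 windows of the same length, in the first of 2 windows of *P2rx7* and in that of *Adora3*. The CRE motif TGACGTCA (1.92% of windows), the ISRE-type motif (TTTC, any 2 bases, TTTC, 2.86%) and the NF-kB consensus (4.23%) were in no window of the 8 genes. The HIF core ACGTG (17.7%), which the palindrome CACGTG holds on both strands, was in *P2ry12* and in 1 of 2 windows of *P2ry2*. These are letter matches within 250 bases and are not binding sites.

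*Ada* was weakly expressed, at 3.03 and 2.85 CPM in wt and 3.40 and 3.31 CPM in *Treml4-/-* cells at M0. It was at 3.43 and 2.73 CPM in wt and 3.15 and 2.89 CPM in *Treml4-/-* cells at 8 h, and at 1.86 and 2.20 CPM in wt and 1.54 and 1.44 CPM in *Treml4-/-* cells at 12 h. The 12 h libraries were under all others, at 74 to 111 reads. The 8 h difference of -0.04 ± 0.08 log2 units did not pass the test (limma, adjusted p = 0.692) and turned to a called 0.55 after median of ratios scaling. On the CPM scale *Ada* was lower at 12 h against M0 by -0.59 ± 0.08 (limma, adjusted p = 3.3e-05), a value that was 0.00 after median of ratios scaling and turned to 0.23 after quantile normalization. From 8 h to 12 h it fell by 0.56 ± 0.08 (limma, adjusted p = 1.7e-04), or -0.55 with median of ratios scaling.

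**Figure D2:**
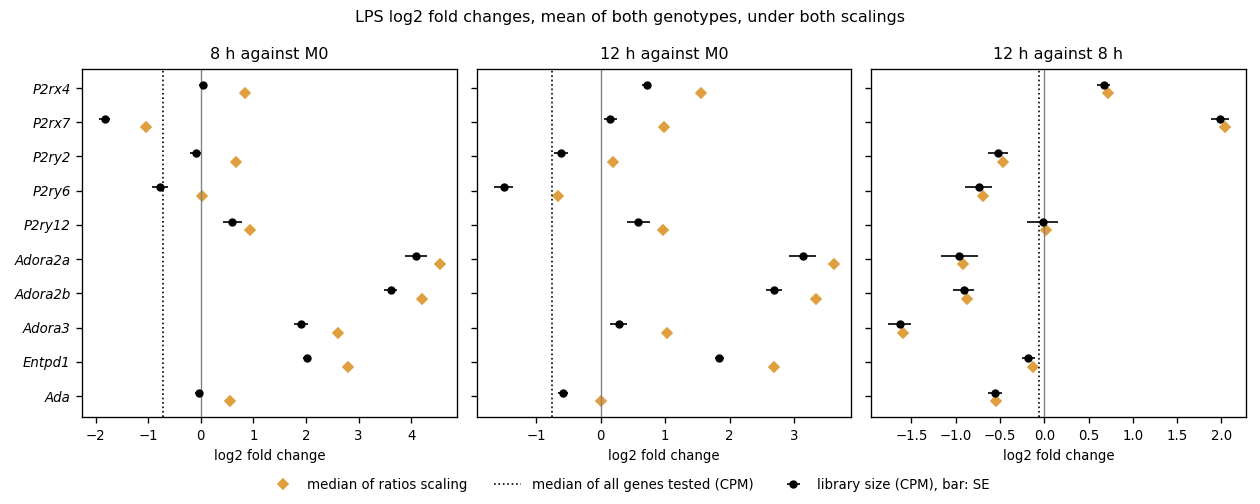
Log2 fold change (x axis) of each gene for 8 h against M0, 12 h against M0 and 12 h against 8 h, as the mean of both genotypes, with black points and SE bars on the CPM scale, orange diamonds after median of ratios scaling and a dotted line at the median of all genes tested (-0.72, -0.76 and -0.06). The diamonds lie right of the points in both comparisons with M0 and almost on them from 8 h to 12 h, while *Adora2a*, *Adora2b* and *Entpd1* lie far right of 0 under both scalings.

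Levels were compared between genes as CPM per kilobase of exon (RPKM), with exon lengths from GENCODE M21, and the order within a library does not depend on the scaling. Overlap in this paragraph refers to ranges over the 4 libraries of a time. Genes that overlap in this way can still keep 1 order within each library. At M0 *P2ry6* led at a mean of 66.0 RPKM over 4 libraries, followed by *P2rx4* (26.8), *P2rx7* (12.6), *Entpd1* (10.6), *P2ry2* (7.68), *Adora3* (1.90), *Ada* (1.57), *Adora2b* (1.44), *Adora2a* (0.301) and *P2ry12* (0.288). Of the neighbours in that order, *Ada* and *Adora2b* overlapped, as did *Adora2a* and *P2ry12*. At 8 h *Entpd1* (43.5 RPKM) and *P2ry6* (38.4) overlapped at the top, *P2rx4* (27.6) overlapped *Adora2b* (23.7), and *Adora2a* (10.8), *Adora3* (7.96) and *P2ry2* (7.12) each overlapped the next. *P2rx7* (3.43), *Ada* (1.52) and *P2ry12* (0.669) followed without overlap. At 12 h *P2rx4* (43.9 RPKM) led *Entpd1* (38.5) and *P2ry6* (23.3) without overlap between the first and the second or between *Entpd1* and *P2ry6*. Lower down, *P2ry6* overlapped *P2rx7* (14), *P2rx7* overlapped *Adora2b* (12.2), and *Adora2a* (5.36) overlapped *P2ry2* (4.92). *Adora3* was at 2.38 RPKM, above *Ada* (0.88) and *P2ry12* (0.644), which overlapped.

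Genotype was compared as wt relative to *Treml4-/-* at each time, as the mean of the 3 times and as the difference between genotypes in the response to LPS. None of the 10 genes was called in any of these 6 comparisons with limma, where 0.0993% of all genes were called at M0, 0.091% at 8 h, 0.132% at 12 h, 0.414% for the mean and 0.00827% for each interaction. By unadjusted limma p under 0.05 the numbers of the 10 genes were 0 at M0, 1 at 8 h (*Adora2a*), 1 at 12 h (*Ada*), 2 for the mean (*P2rx4* and *Adora2a*), 0 for the 8 h interaction and 1 for the 12 h interaction (*Ada*). Of all genes tested, 3.35% passed that unadjusted level at M0, 21.0% at 8 h, 7.55% at 12 h, 20.1% for the mean and 6.67% and 3.82% for the interactions. The same 0 calls were found with voom on recovered reads. Replicates of the genotypes did not overlap for 5 of the 10 genes at M0, 4 at 8 h and 2 at 12 h, where 28.8%, 51.9% and 43.1% of all genes did not.

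*Adora2a* had the widest difference, with a mean of 42.3 ± 13.1 CPM (SD, n = 2) in wt and 24.0 ± 2.80 CPM in *Treml4-/-* cells at 8 h. Both wt replicates were above both *Treml4-/-* replicates at 8 h, and the replicates overlapped at M0 and 12 h. The log2 fold change was 0.77 ± 0.30 at 8 h, with an unadjusted 95% interval of 0.10 to 1.43 (limma, adjusted p = 0.199). The LPS response at 8 h differed between genotypes by 0.55 ± 0.43 (limma, adjusted p = 0.767). *P2ry12* had both wt replicates under both *Treml4-/-* replicates at 8 h, at -0.53 ± 0.26 (limma, adjusted p = 0.259). *Ada* was at 2.03 ± 0.242 CPM in wt and 1.49 ± 0.0711 CPM in *Treml4-/-* cells at 12 h, a log2 fold change of 0.28 ± 0.12 (limma, adjusted p = 0.617), and its 12 h response differed by 0.43 ± 0.17 (limma, adjusted p = 0.999). *P2ry6* was at 59.2 ± 20.5 CPM in wt and 75.1 ± 0.279 CPM in *Treml4-/-* cells at 12 h, at -0.38 ± 0.21 (limma, adjusted p = 0.759). On the CPM scale, the 95% intervals of *P2rx4*, *P2rx7* and *Entpd1* at all 3 times lay within 0.49 log2 units of 0, that is within the 1.4-fold threshold. For the other 7 genes at least 1 interval reached past it. After median of ratios scaling the 8 h values were 0.35 for *P2rx4*, 0.06 for *P2rx7* and 0.14 for *Entpd1*. Intervals with that scaling are not given here. All 10 genes lie on chromosomes other than 17, which holds *Treml4*. Those whose place is not given above are *P2ry2* (chromosome 7, 100996568 to 101012866) and *P2ry6* (chromosome 7, 100937630 to 100974649) on the minus strand, *Adora2a* (chromosome 10, 75316877 to 75334784), *Adora2b* (chromosome 11, 62248984 to 62266453) and *Adora3* (chromosome 3, 105870858 to 105908926) on the plus strand, and *Ada* (chromosome 2, 163726584 to 163750239) on the minus strand, in mm10.

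**Figure D3:**
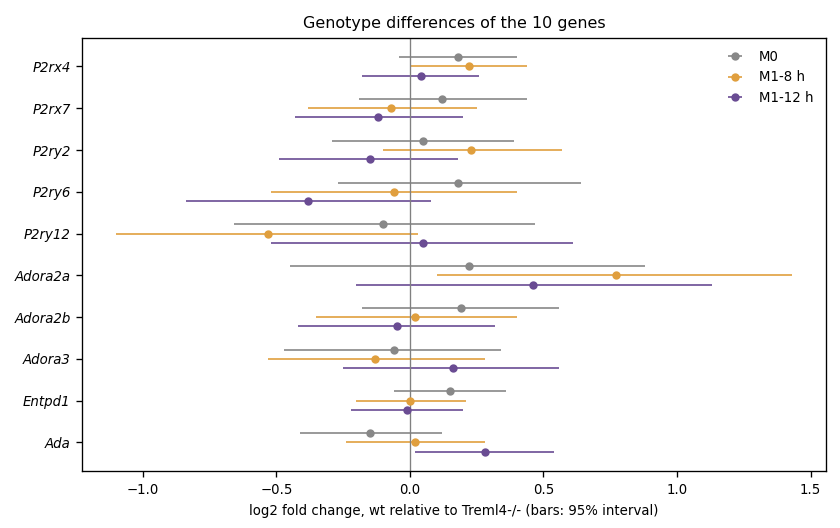
Log2 fold change of wt relative to *Treml4-/-* for each gene (x axis), on the CPM scale. Points are for M0 (grey), M1-8 h (orange) and M1-12 h (purple), and bars for the unadjusted 95% interval. The widest bars belong to *Adora2a*, *P2ry12* and *P2ry6*, and the 8 h interval of *Adora2a* runs from 0.10 to 1.43.

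Beyond the 10 genes, 64 other genes were listed for purinergic receptors, nucleotide breakdown, transport, ATP release and the downstream inflammasome and cAMP arms, and 46 of them were tested. At 8 h 13 of the 46 were higher and 26 lower, and at 12 h 13 were higher and 26 lower, against the shares of all genes given above. After median of ratios scaling 19 were higher and 15 lower at 8 h, against 31.1% and 31.3% of all genes. At 12 h 19 were higher and 16 lower with this scaling, against 32.6% and 32.5%. Between 8 h and 12 h 6 were higher and 18 lower on the CPM scale, against 13.5% and 18.7% of all genes. The 46 genes had no call between genotypes at any time with limma, and 1, 9 and 7 had an unadjusted p under 0.05 at M0, 8 h and 12 h, where 3.35%, 21.0% and 7.55% of all genes did.

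Of the other P2Y receptor genes *P2ry13* and *P2ry14*, which encode receptors for ADP and for UDP-glucose, rose. Values printed for other pathway genes as rises or falls were each called, at adjusted p of 0.00297 or less (limma). *P2ry13* went from a mean of 2.24 CPM at M0 to 12.2 CPM at 8 h and 7.19 CPM at 12 h (log2 fold changes 2.01 and 1.34). *P2ry14* went from 15.3 CPM to 60.7 and 96.9 CPM (1.92 and 2.58). Both genes lie with *P2ry12* inside *Med12l*, on its opposite strand, so the same limit on counting applies to them. Their rise held after median of ratios scaling. *P2ry1*, another ADP receptor gene, fell at 12 h from 2.09 CPM to 0.169 CPM (-1.40), while its 8 h value of -0.20, not called, turned to 0.30 after median of ratios scaling and 0.43 after quantile normalization. The third channel gene tested, *P2rx5*, was lower on the CPM scale at both times (-0.63 and -0.70) but was not called after median of ratios scaling (-0.16 and -0.21).

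In adenosine and purine breakdown and salvage, 3 of the 12 genes tested beside *Ada* were higher and 7 lower at 8 h. At 12 h 3 were higher and 8 lower. Of all genes tested, 17.1% were higher and 59.8% lower at 8 h, and 16.3% and 60.3% at 12 h. After median of ratios scaling these counts were 5 and 3 at 8 h and 4 and 4 at 12 h. All genes then gave 31.1% and 31.3% at 8 h and 32.6% and 32.5% at 12 h. *Pnp*, which splits the inosine that adenosine deaminase makes, rose from a mean of 130.0 CPM to 1710 CPM at 8 h and 1260 CPM at 12 h (log2 fold changes 3.71 and 3.27). Its paralog *Pnp2* rose from 2.50 CPM to 62.6 and 41.4 CPM (4.19 and 3.59), and reads of the pair could be split between them. *Ahcy*, which takes S-adenosylhomocysteine to adenosine and homocysteine, fell from 59.7 CPM to 21.5 and 7.44 CPM (-1.45 and -2.84, or -0.67 and -2.03 after median of ratios scaling).

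The nucleoside transporter genes split. *Slc28a2*, a sodium-coupled transporter of purine nucleosides into the cell, rose from a mean of 24.7 CPM to 779 CPM at 8 h and 958 CPM at 12 h (log2 fold changes 4.92 and 5.22). *Slc29a1*, the main equilibrative transporter, fell from 76.9 CPM to 10.9 and 4.90 CPM (-2.71 and -3.73), and *Slc29a2* fell from 2.08 CPM to 0.226 and 0.304 CPM (-1.33 and -1.24). All 3 genes kept their direction and calls after median of ratios scaling. The remaining transporter gene tested, *Slc29a3*, was lower at 8 h (-1.25) and not called at 12 h (0.23). After median of ratios scaling its values were -0.47, not called, and 1.07, called. Among genes for ATP release, *Gja1*, encoding connexin 43, rose from 0.0723 CPM to 4.42 and 2.29 CPM, and *Slc17a9*, the vesicular nucleotide transporter, fell from 5.43 CPM to 0.481 and 0.504 CPM. *Lrrc8a*, a subunit of volume-regulated anion channels, was lower at 12 h on the CPM scale (-0.70), which turned to 0.03 after median of ratios scaling and 0.35 after quantile normalization. The intracellular nucleotidase genes *Entpd5* and *Entpd6* fell at 12 h by 2.54 and 1.58 log2 units. These values were -1.73 and -0.87 after median of ratios scaling and -1.83 and -0.56 after quantile normalization.

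In the arm downstream of *P2rx7*, 4 of 8 genes were higher and 2 lower at 8 h, and 4 were higher and 3 lower at 12 h. Of all genes tested, 17.1% were higher and 59.8% lower at 8 h, and 16.3% and 60.3% at 12 h. After median of ratios scaling the counts became 6 and 1, and 5 and 1. All genes then gave 31.1% and 31.3% at 8 h and 32.6% and 32.5% at 12 h. *Il1b*, encoding interleukin-1β, rose from a mean of 0.54 CPM to 265 CPM at 8 h and 181 CPM at 12 h. *Nlrp3*, the inflammasome sensor, rose from 52.1 CPM to 460 and 265 CPM, and *Casp1*, the protease that cleaves pro-interleukin-1β, rose from 72.9 CPM to 313 and 363 CPM. These 3 genes were thus high at 8 h, when *P2rx7* was at its lowest. The 2 lower genes at 8 h were *Kcnk6* (log2 fold change -1.72) and *Nek7* (-0.91). After median of ratios scaling they were at -0.93, still called, and -0.13, not called.

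In the cAMP arm downstream of the adenosine receptors, 2 of 10 genes were higher and 6 lower at 8 h and again at 12 h. Of all genes tested, 17.1% were higher and 59.8% lower at 8 h, and 16.3% and 60.3% at 12 h. The counts became 4 and 4 at each time after median of ratios scaling. All genes then gave 31.1% and 31.3% at 8 h and 32.6% and 32.5% at 12 h. The adenylate cyclase genes *Adcy3*, *Adcy7* and *Adcy9* fell in both scalings. *Adcy7* went from a mean of 563 CPM to 87.4 CPM at 8 h and 67.6 CPM at 12 h, *Adcy9* from 28.7 CPM to 1.43 and 0.801 CPM, and *Adcy3* from 28.5 CPM to 2.87 and 2.29 CPM. The 2 higher genes were *Crem*, from 3.14 CPM to 37.4 and 28.4 CPM, and *Pde4b*, from 15.8 CPM to 152 and 61.4 CPM. At 12 h their log2 fold changes after median of ratios scaling were 3.48 and 2.68.

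**Figure D4:**
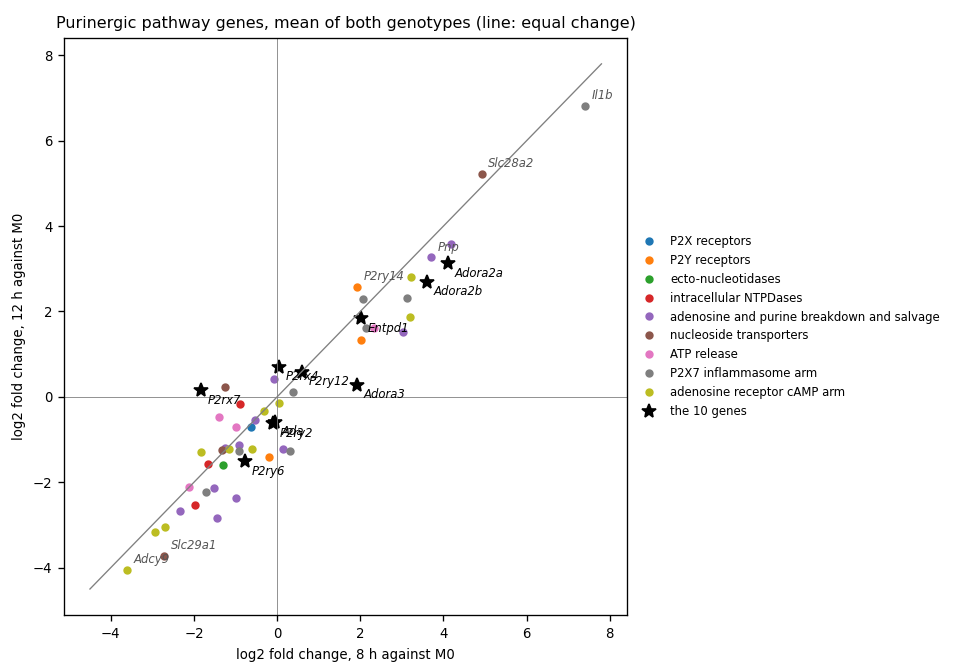
Log2 fold change at 12 h (y axis) against that at 8 h (x axis), both relative to M0 and on the CPM scale, for the 10 genes (stars) and the 46 other pathway genes tested (dots, coloured by list), with a line of equal change. *P2rx7* (-1.83 and 0.15) lies above the line and *Adora3* (1.91 and 0.28) below it, and both axes share the M0 libraries.

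The genes whose pattern was most like that of one of the 10 were found as the smallest root mean square difference of centred log2(CPM + 1) over the 12 libraries, which share their time points and scaling. For *Adora2b* these were *Gnb4*, *Zyx* and *Gpd2*, at differences of 0.172, 0.18 and 0.19 log2 units, where *Adora2b* itself varied by 1.54. For *Adora3* they were *Nox1*, *Snph* and *Afap1* (0.18, 0.19 and 0.196, against 0.858). For *Entpd1* they were *Rnf31*, *Fcgr3* and *Gmppb* (0.0939, 0.0964 and 0.111, against 0.914), and for *P2rx7* *Iqsec1*, *Rapgef1* and *Abcd3* (0.128, 0.171 and 0.177, against 0.91). For *P2rx4* they were *Cyfip2*, *Kdm4b* and *Npc2* (0.104, 0.107 and 0.111, against 0.343). *P2ry2*, *P2ry6*, *P2ry12* and *Ada* had nearest genes at 0.0956 to 0.185, where these 4 genes themselves varied by 0.294 to 0.657.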

How the data were processed

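RNA-seq libraries (TruSeq stranded, poly(A) selected, paired-end) of 12 BMDM cultures were analysed. The authors aligned reads to mm10 with STAR, used Subread within the CCBR workflow for gene counts, and deposited log2 CPM values, with a prior of 0.25 reads. The gene annotation and the use of strand in counting are not given in the sources used here. Removing the prior gave whole reads, within 0.01 reads, for 100% of values, and these were turned into CPM. One read was worth 0.0171 to 0.0208 CPM, and read numbers limit counting error only.

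On log2(CPM + 1) values, limma (version 3.58.1, R version 4.3.3) fitted a mean for each of the 6 conditions with a variance trend. Benjamini-Hochberg adjustment ran over 12086 genes, those that reached 1 CPM in 2 or more libraries. Tables were handled with Python 3.11.15. Positions and exon lengths came from GENCODE M21 on GRCm38, which is the mm10 build, and promoters from RefSeq. The 10 genes and the pathway and marker lists were chosen with earlier results of these data known. The other pathway genes named are up to 3 per list with the largest called change at 12 h against M0 on the CPM scale. *Nt5e*, *Adora1*, *Crem*, *Pde4b*, *Kcnk6*, *Nek7* and *Slc29a3* were named after their values were seen, as were the genes that overlap a member. The main fit did not pair samples by replicate number. The labels do not say whether same-numbered libraries of a genotype share an animal or culture. Alternatives were other scalings, filters, pseudocounts, voom, the replicate number as a block and leaving out each library. The genes nearest in pattern to *Adora2a* are not reported here. Symbols *Emr1* and *Irg1* in the table stand for *Adgre1* and *Acod1*.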

Additional observations from a re-analysis of the deposited data

How the results depend on the processing

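The number of the 10 genes called stayed within 1.5 times its main value in all 13 comparisons under every alternative run. It was 6 to 9 at 8 h, 6 to 8 at 12 h, 7 to 9 from 8 h to 12 h and 0 between genotypes. Which genes were called changed more than their number. At 8 h median of ratios scaling added *P2rx4*, *P2ry2* and *Ada* as higher and lost *P2ry6*. With the filter at 5 CPM, *P2ry12* and *Ada* were not tested. Low depth limits *P2ry12*, at 26 to 140 reads per library, *Ada*, at 74 to 184, and *Adora2a* at M0, at 34 to 76.

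Some signs turned with the scaling of the libraries and others when 1 library was left out. For the scalings, the values are given after median of ratios scaling first and after quantile normalization second. At 8 h against M0 they were 0.67 and 0.58 for *P2ry2* and 0.55 and 0.76 for *Ada*. For *P2ry6* the sign turned with the former (0.02) and not with the latter (-0.74). At 12 h the values were 0.19 and 0.14 for *P2ry2* and 0.00 and 0.23 for *Ada*. From 8 h to 12 h they were 0.02 and 0.06 for *P2ry12*, and 0.00 with voom. For wt against *Treml4-/-* at 8 h they were 0.06 and 0.02 for *P2rx7*, and with the former 0.07 for *P2ry6* and 0.00 for *Adora3*. Leaving out 1 library moved *P2rx4* between -0.02 and 0.11 and *Ada* between -0.10 and 0.03 at 8 h, and *P2ry12* between -0.22 and 0.18 from 8 h to 12 h. For wt against *Treml4-/-* at 8 h it moved *P2rx7* between -0.24 and 0.10, *P2ry6* between -0.29 and 0.18, *Adora2b* between -0.27 and 0.32, *Adora3* between -0.38 and 0.13, *Entpd1* between -0.10 and 0.10 and *Ada* between -0.11 and 0.14. None of these genotype values was called. The cause was not tested.

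A fit with a replicate block called 7 of the 10 genes at 8 h, 8 at 12 h and 8 from 8 h to 12 h, as without it, and 0 between genotypes. Deviations of same-numbered libraries correlated at -0.272 to 0.462, and the replicate block was kept as an alternative. Within wt cells the values were 0.125, 0.062 and 0.406, and within *Treml4-/-* cells 0.462, -0.199 and -0.272. The block was 1 term shared by both genotypes, so it cannot test pairing within a genotype. The fits treat the 12 libraries as independent, which would not hold if same-numbered libraries share an animal.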
